A study of Mus musculus with 6 samples.

Results

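The nuclear genes for the subunits of the mitochondrial respiratory chain were followed in stimulated mouse CD8 T cells with and without a T cell deletion of NIK. They were the rows of the count table whose symbols begin with Ndufa, Ndufb, Ndufc, Ndufs or Ndufv and a digit, Ndufab1, Uqcr, Cox4 to Cox8, or Atp5. The pattern took 88 of 49492 rows, and 7 rows for -ps pseudogenes, with total counts of 2 to 73 each, were left out. The 81 remaining genes comprised 38 with complex I symbols, 8 with complex III symbols, 18 with complex IV symbols and 17 with complex V symbols. The choice used names alone, so it also took Cox7a2l, a factor of respiratory supercomplexes, and Atp5s and Atp5sl, which are not core subunits of ATP synthase. Ndufa4, counted here under complex I by its symbol, is now placed in complex IV.

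The respiratory chain sits in the inner mitochondrial membrane. Complex I passes electrons from NADH to ubiquinone, complex III passes them on to cytochrome c, and complex IV passes them to oxygen, while all of these pump protons that complex V, the ATP synthase, lets back to make ATP. Most subunits are encoded in the nucleus and imported, a few are made in the mitochondrion, and CD8 T cells expand their mitochondria and their respiration when they are activated through the T cell receptor.

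The KO group held 3 libraries (replicates 4, 5 and 6) from mice of the genotype NIK-CD4Cre-OT-I, and the WT group held 3 libraries (replicates 1, 2 and 3) from Wild Type-OT-I mice. All mice were on the C57/BL6 background and 6 to 8 weeks old, and all carried OT-I, a transgenic T cell receptor for an ovalbumin peptide. Naive CD8 T cells from spleen were stimulated for 24 hours with immobilised anti-CD3 (1 µg/ml) and soluble anti-CD28 (1 µg/ml), and total RNA was sequenced. NIK, the product of Map3k14, is a kinase of the noncanonical NF-kB pathway. CD4-Cre acts while thymocytes carry CD4, so CD8 T cells and the other alpha-beta T cells share the deletion. Whether the 3 libraries of a group came from separate mice is not stated, so the p-values measure only the spread between these libraries, which may be in part technical.

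Each library held between 41311346 and 47851445 counts. Map3k14 had 2425, 2837 and 2271 counts in the libraries labelled KO, against 2406, 2992 and 3025 counts in those labelled WT (log2 fold -0.12, SE 0.11, adjusted p = 0.81 by edgeR's quasi-likelihood test). The count of the whole gene thus did not separate the labelled genotypes. The labels do not say which exons were removed, and KO and WT name the labels throughout. Xist had 82938 to 92901 counts in KO replicate 6, WT replicate 1 and WT replicate 3 and 22 to 38 counts in the other libraries, so both groups mixed the sexes. The 8 T cell marker genes summed to 2256 to 2371 CPM in KO libraries and 2142 to 2331 CPM in WT libraries. CPM is a gene's count set on a scale of 1000000 counts per library after TMM scaling, which corrects for differences in library composition. The 6 erythroid markers summed to 0.0909 to 0.334 CPM in KO libraries and 0.109 to 0.345 CPM in WT libraries. B cell markers reached 31.9 to 44.4 CPM in KO libraries and 26.4 to 84.8 CPM in WT libraries, and myeloid markers reached 2.98 to 14.2 CPM in KO libraries and 2.22 to 4.86 CPM in WT libraries. The 4 NK cell markers summed to 77.2 to 113 CPM in KO libraries and 102 to 116 CPM in WT libraries, nearly all of it Nkg7, which activated CD8 T cells also express. Klre1, another of them, had 8, 6 and 12 counts in KO libraries, against 16, 35 and 45 counts in WT libraries, with no overlap (log2 fold -1.82, SE 0.46, adjusted p = 0.60 by edgeR's quasi-likelihood test). In the other tested marker lists the genes with the smallest p were Cd3e of T cells (log2 fold 0.20, SE 0.076), Foxp3 of CD4 T cells (log2 fold -1.01, SE 0.51), Cd22 of B cells (log2 fold -0.86, SE 0.50), Lyz2 of myeloid cells (log2 fold 1.78, SE 0.63) and Itgax of dendritic cells (log2 fold 0.37, SE 0.51). The groups overlapped for Cd3e, Foxp3, Cd22, Lyz2 and Itgax. Signs were mixed in most lists, with 7 positive and 1 negative log2 folds for T cell markers and 1 and 2 for CD4 T cell markers. They were 6 and 1 for myeloid markers, 2 and 1 for dendritic cell markers, 0 and 6 for B cell markers and 0 and 2 for NK cell markers. No marker gene was called. Within these RNA pools, fewer cells of a type and less RNA per cell cannot be told apart.

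The genes of the chain have long been tied to a few transcription factors, among them NRF1, the ETS factor GABP (also called NRF-2), YY1 and the estrogen-related receptors. The RefSeq promoter table (GRCm38.p6) covered 67 of the 81 genes. Each window held 300 bases, from 250 before to 50 after a start of transcription, and was searched on both strands. A gene can have several starts and was counted once if any of its windows held a match. The NRF1 letters GCGCANGCGC stood in windows of 15 of these 67 genes (22.4%), against 7.17% of 17492 protein-coding genes and 11.9% of the 9339 tested genes with a window. By complex they were found for 7 of 33 genes of complex I, 1 of 5 of complex III, 1 of 13 of complex IV and 6 of 16 of complex V. The 5 windows shown here carry them in genes of complexes I, IV and V, in the 60 bases around the match, written along the gene's strand with the match in capitals. They are Ndufa11 (plus strand, chr17:56717677-56717736), Ndufs6 (minus strand, chr13:73328483-73328542), Cox6a1 (minus strand, chr5:115349086-115349145), Atp5g2 (minus strand, chr15:102671055-102671114) and Atp5k (minus strand, chr5:108434415-108434474).
Ndufa11: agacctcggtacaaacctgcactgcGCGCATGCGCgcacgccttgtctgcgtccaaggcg
Ndufs6: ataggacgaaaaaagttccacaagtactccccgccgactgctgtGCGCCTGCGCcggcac
Cox6a1: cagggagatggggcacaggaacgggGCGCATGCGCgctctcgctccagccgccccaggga
Atp5g2: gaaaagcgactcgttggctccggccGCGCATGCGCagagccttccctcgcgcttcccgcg
Atp5k: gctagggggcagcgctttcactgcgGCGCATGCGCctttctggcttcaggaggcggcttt

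The match of Ndufs6 reads GCGCANGCGC on the opposite strand, and the other 4 lines hold one and the same match. The YY1 letters AAGATGGC were found for 11 of the 67 genes (16.4%), against 3.57% of protein-coding genes and 5.43% of tested genes. Of those 11 genes, 7 belonged to complex I and 4 to complex V by symbol. The ETS letters CCGGAAG, whose last 3 letters can be the first 3 of the YY1 motif, were found for 14 genes (20.9%), against 12.9% of protein-coding genes and 20.7% of tested genes. The letters TCAAGGTCA of the estrogen-related receptors were found for 1 gene (1.49%), Atp5g3, against 0.377% of protein-coding genes and 0.332% of tested genes. A match describes the letters and is no evidence of binding. Of the factors' own transcripts, Nrf1 had 62.6, 59.3 and 63.3 CPM in KO libraries, against 62.7, 58.5 and 60.9 CPM in WT libraries, and the groups overlapped.

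The subunit genes were among the well expressed genes of these cells. Of the 81 genes, 73 averaged at least 5 CPM over the 6 libraries. Together the 81 genes took 0.799%, 0.766% and 0.759% of all counts in KO replicates 4, 5 and 6, against 0.825%, 0.754% and 0.788% in WT replicates 1, 2 and 3. Complex V gave the largest part, with summed levels of 3682 ± 144 CPM in KO libraries and 3810.1 ± 163 CPM in WT libraries (SD, n = 3 each). Complex I summed to 1987 ± 49.6 CPM in KO libraries and 2022 ± 77.1 CPM in WT libraries. Complex IV summed to 1175 ± 29.5 CPM in KO libraries and 1202 ± 50.8 CPM in WT libraries, and complex III to 870.2 ± 21.0 CPM in KO libraries and 898 ± 43.8 CPM in WT libraries. In all 4 complexes the 2 means lay closer than 1 SD of the WT libraries.

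Per kilobase of transcript, levels between genes can be compared. Among genes of at least 5 CPM, the median level was 57.3 CPM per kilobase for complex I (37 genes), 101 for complex III (8 genes), 145 for complex IV (12 genes) and 160 for complex V (16 genes). The highest in each complex were Ndufa4 at 155, Uqcrq at 324, Cox4i1 at 239.5 and Atp5b at 621 CPM per kilobase. The lowest at or above 5 CPM were Ndufb4 at 7.99, Uqcr11 at 86.8, Cox6a2 at 8.71 and Atp5sl at 12.0 CPM per kilobase. Highest and lowest were thus 19.4-fold apart in complex I, 3.73-fold in complex III, 27.5-fold in complex IV and 51.8-fold in complex V. By this ratio complex III was the most even. Without Ndufa4 in complex I and without Atp5s and Atp5sl in complex V, the ratios were 14.5-fold and 12.4-fold. In complex IV the next gene above Cox6a2 was Cox7a2l at 81.8 CPM per kilobase. The lower and upper quartiles were 40.5 and 70.3 CPM per kilobase in complex I and 89.7 and 191 in complex III. They were 113 and 193 in complex IV and 123 and 220 in complex V, and by them complex III was not the most even. In complex V the beta and alpha subunits of the catalytic head (Atp5b and Atp5a1 at 373 CPM per kilobase) led, and these are present in several copies per enzyme, as is subunit c, whose gene Atp5g3 stood at 321. These levels depend on the transcript taken for the length, and the genes that share sequence with pseudogenes may be understated, as given below.

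**Figure D1:**
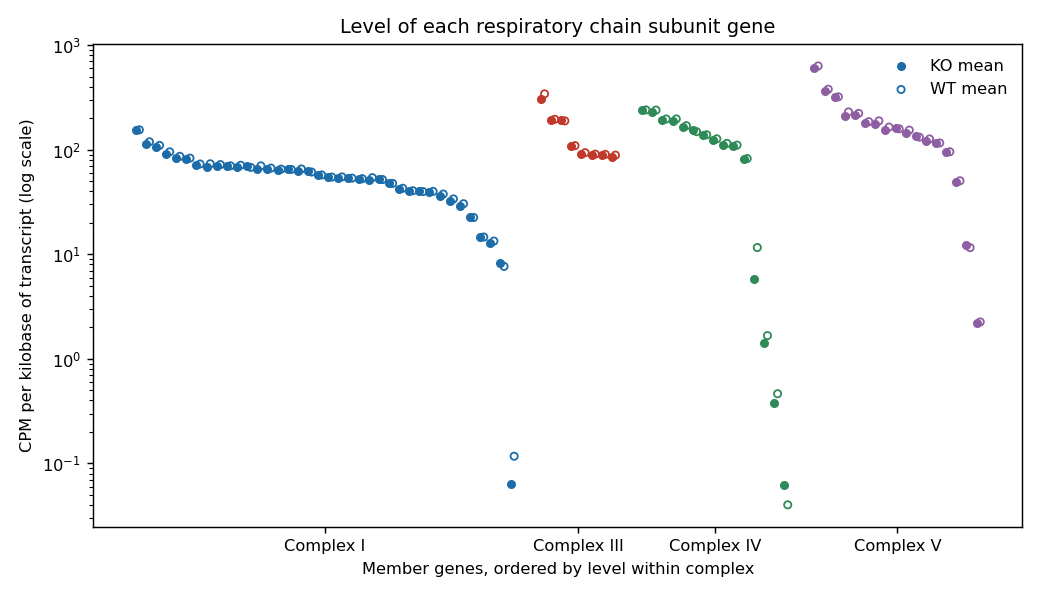
Mean level of each subunit gene in CPM per kilobase of transcript (log scale), genes ordered by level within each complex, filled points for KO and open points for WT (3 libraries each); genes with a mean of 0 are not drawn. Complex III spans 3.73-fold, and the few low points of complex IV are isoform genes such as Cox6a2 at 8.71 CPM per kilobase.

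No subunit gene differed between KO and WT at an adjusted p under 0.05. Of the 81 genes, 75 passed the filter on low counts and were tested among 15186 genes with edgeR's quasi-likelihood test, Benjamini-Hochberg adjusted over all of them. The count of subunit genes called was 0, against 0.00659% of all tested genes (1 gene). DESeq2 also called 0 of them, against 0.599% of all tested genes (91 genes). At an unadjusted p under 0.05, 0 subunit genes were higher in KO (3.82% of all tested genes) and 2 were lower, Uqcrq and Atp5d (2.67% of the 75, against 3.44% of all tested genes). The smallest adjusted p among the 75 was 0.60. The intervals were narrow: for 69 of the 75 genes the 95% interval of the fold lay within 1.2-fold in either direction, and for 73 within 1.5-fold. Of all 15186 tested genes, 5490 lay within 1.2-fold and 9776 within 1.5-fold. Among genes of at least 5 CPM, 69 of 73 subunit genes lay within 1.2-fold, against 5488 of 9649 tested genes. The subunit genes had the higher median count, as given below, and its part in this was not tested. By complex, the interval lay within 1.2-fold for 35 of 37 tested genes of complex I, 7 of 8 of complex III, 11 of 13 of complex IV and 16 of 17 of complex V.

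Small differences leaned to lower levels in KO. The log2 fold was negative for 60 of the 75 genes (80.0%, against 47.6% of all tested genes), with 29 of 37 in complex I, 7 of 8 in complex III, 12 of 13 in complex IV and 12 of 17 in complex V. The median log2 fold was -0.020 for complex I, -0.029 for complex III, -0.032 for complex IV and -0.035 for complex V, against 0.0071 over all tested genes. The KO and WT libraries did not overlap for 9 of the 75 genes, all lower in KO (12.0%, against 6.07% of all tested genes), and for 0 genes higher in KO (6.68% of all tested genes). These 9 were Ndufa2, Ndufa7, Ndufa11, Ndufa13 and Ndufb7 of complex I, Uqcrq of complex III, and Atp5d, Atp5g1 and Atp5g2 of complex V. The lean depended on which libraries were kept, of KO as well as of WT. Without KO replicate 5 or KO replicate 6, 48 of the 75 log2 folds were negative, and without KO replicate 4, 63 were. Without WT replicate 2, 71 of the 75 log2 folds were negative, with medians of -0.043 for complex I, -0.081 for complex III, -0.067 for complex IV and -0.073 for complex V. With the trends of length and GC content removed from all libraries, 49 of the 75 were negative. Without WT replicate 1, 36 of the 75 log2 folds were negative, against 47.2% of all tested genes, and the medians were 0.016 for complex I, 0.0075 for complex III, 0.0085 for complex IV and -0.019 for complex V. Still 0 subunit genes were then called, against 0.764% of all tested genes (119 genes), and an unadjusted p under 0.05 was found for 1 gene higher in KO and 2 lower (14.9% of all tested genes, both directions together).

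**Figure D2:**
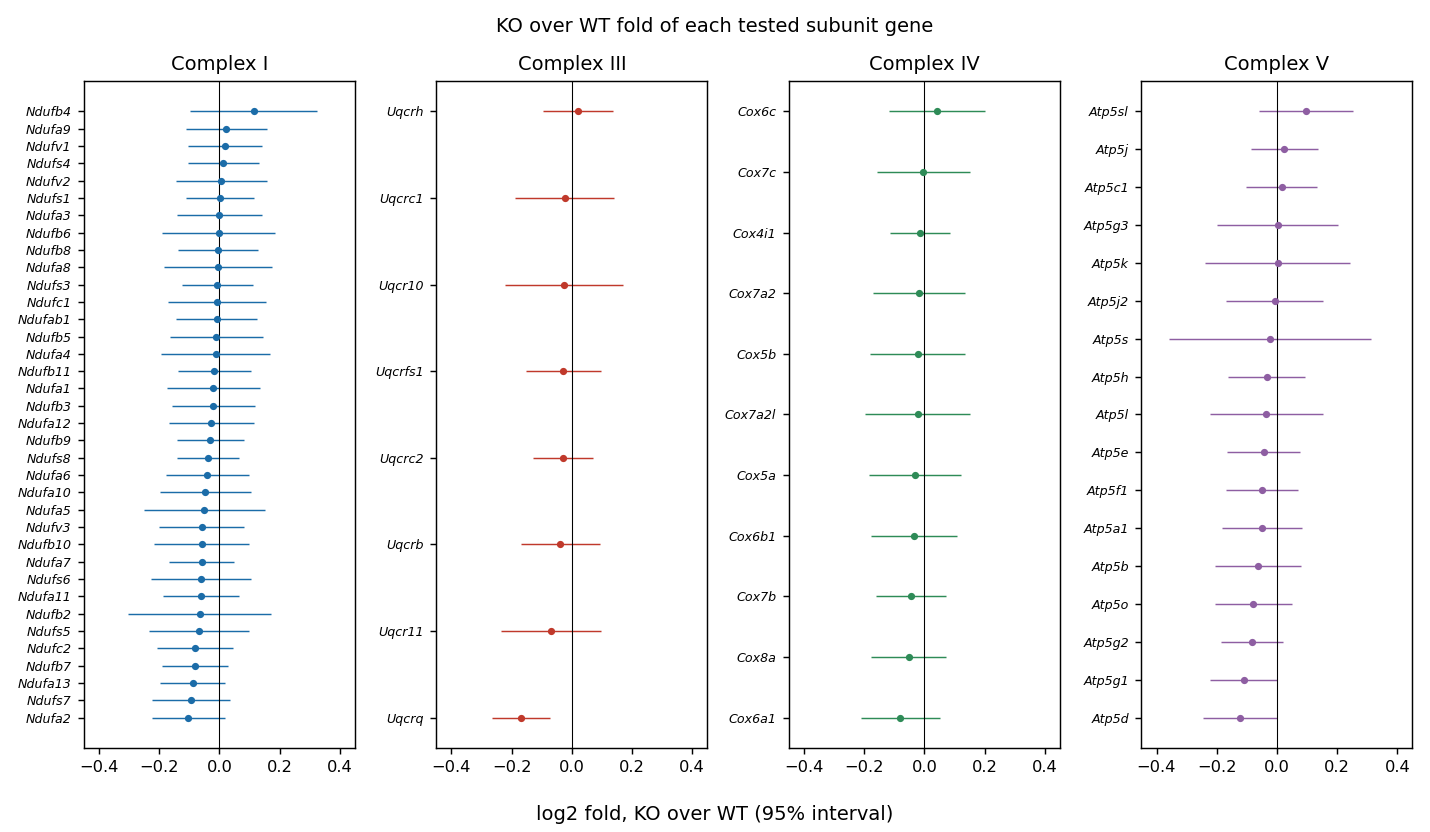
Log2 fold of KO over WT for each tested subunit gene with its 95% interval from edgeR's quasi-likelihood fit, genes ordered by fold within each complex; Cox6a2 and Cox6b2, with log2 folds of -1.003 and -0.24 and wide intervals, and 1 further gene of complex I are not drawn. The interval of Uqcrq, from a log2 fold of -0.26 to -0.072 (0.832-fold to 0.951-fold), lies below a log2 fold of 0.

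The libraries moved the subunit genes together. For each gene, its deviation in a library was taken as log2(CPM + 0.5) minus the gene's mean over the 6 libraries. The median deviation of the 75 genes was 0.029 in KO replicate 4, -0.038 in KO replicate 5 and -0.043 in KO replicate 6, against 0.075 in WT replicate 1, -0.050 in WT replicate 2 and 0.0072 in WT replicate 3. WT replicate 1 was thus the highest library, WT replicate 2 the lowest, and the KO libraries lay between them. WT replicate 1 held the highest value of 51 of the 75 genes (68.0%), against 18.6% of the 9649 tested genes of at least 5 CPM. WT replicate 2 held the lowest value of 29 of the 75 (38.7%, against 24.1% of those genes).

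Each complex kept this order at its upper end. In complex I the median deviation was 0.026, -0.032 and -0.047 in KO libraries and 0.071, -0.050 and 0.0096 in WT libraries. In complex III it was 0.023, -0.043 and -0.034 in KO libraries and 0.094, -0.056 and 0.00020 in WT libraries. WT replicate 1 was the highest and KO replicate 4 the second highest in these 2 complexes. Complex IV had medians of 0.034, -0.041 and -0.033 in KO libraries and 0.11, -0.048 and -0.0013 in WT libraries. Complex V had 0.029, -0.049 and -0.049 in KO libraries and 0.075, -0.041 and 0.019 in WT libraries. The lowest library was WT replicate 2 in complexes I, III and IV, and KO replicate 6 in complex V. The spread of single genes was small: their SD over the 6 libraries had a median of 0.067 on the log2 scale for the 73 subunit genes of at least 5 CPM, against 0.090 for the 9649 tested genes of that level. The median total count behind these values was 19115 for the subunit genes and 12369 for the tested genes, and the part of this depth in the difference of spread was not tested.

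**Figure D3:**
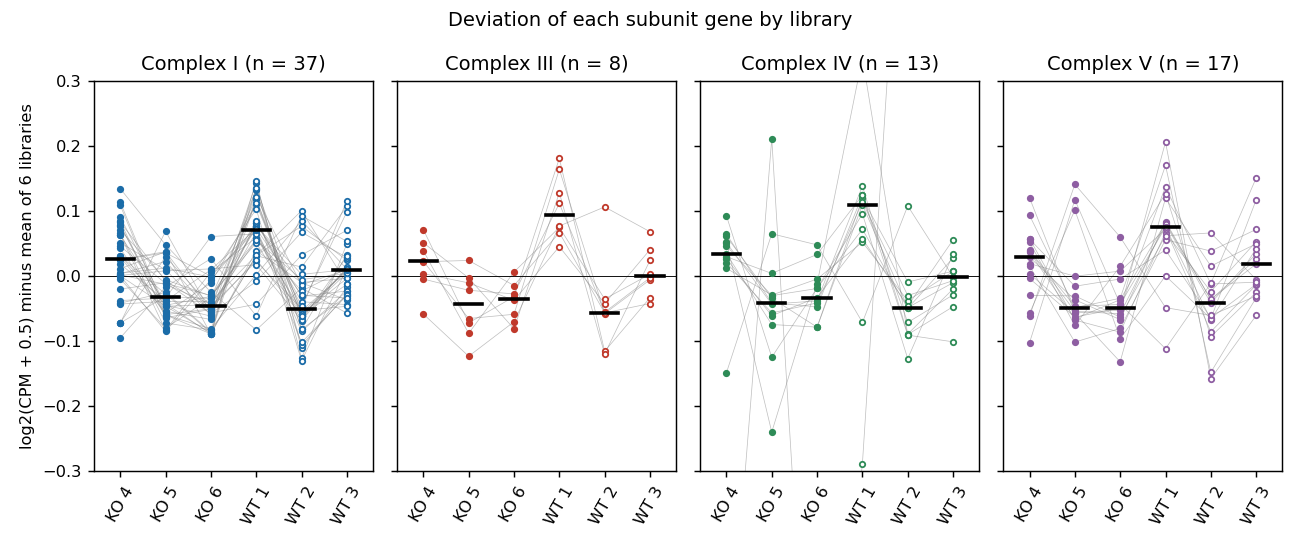
Deviation of each tested subunit gene from its mean over the 6 libraries, log2(CPM + 0.5), by library and complex, with grey lines joining a gene and black bars at the median; some points of Cox6a2 and Cox6b2 lie outside the axis. WT replicate 1 has the highest median in each complex, between 0.071 and 0.11.

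Complex I was close between KO and WT in the core subunits of its NADH-oxidising arm. Ndufs1, an iron-sulfur subunit of the NADH-oxidising arm, had 107, 102 and 101 CPM in KO libraries, against 107, 99.0 and 104 CPM in WT libraries (log2 fold 0.0030, SE 0.049). Ndufv1, which binds NADH and flavin, had 108, 102 and 98.9 CPM in KO libraries, against 104, 98.1 and 103 CPM in WT libraries (log2 fold 0.018, SE 0.052). The ranges overlapped for both genes, with KO replicate 4 above every WT library for Ndufv1. Ndufv2, the small iron-sulfur partner of Ndufv1, had 88.5, 89.0 and 88.2 CPM in KO libraries, against 94.8, 80.6 and 89.0 CPM in WT libraries. The KO values of Ndufv2 lay inside the wider WT range.

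Ndufs7 and Ndufs8 are iron-sulfur subunits next to the ubiquinone site. Ndufs7 had 51.2, 52.7 and 52.6 CPM in KO libraries, against 57.1, 52.1 and 57.7 CPM in WT libraries (log2 fold -0.094, SE 0.055, adjusted p = 0.71 by edgeR's quasi-likelihood test). WT replicate 2 lay among the KO libraries. Ndufs8 had 65.0, 64.3 and 63.0 CPM in KO libraries, against 67.4, 64.6 and 65.1 CPM in WT libraries (log2 fold -0.036, SE 0.044), again with overlap at WT replicate 2. Ndufab1, the mitochondrial acyl carrier protein, had 59.9, 54.0 and 57.5 CPM in KO libraries, against 59.7, 55.2 and 57.6 CPM in WT libraries. The 2 sets of values were nearly the same.

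Of the accessory subunits, Ndufa2 and Ndufa13 had the smallest p among the complex I genes lower in KO. Ndufa2, which sits on the NADH-oxidising arm, had 37.6, 38.0 and 36.4 CPM in KO libraries, against 39.6, 39.1 and 41.7 CPM in WT libraries (log2 fold -0.10, SE 0.051, adjusted p = 0.70 by edgeR's quasi-likelihood test). Ndufa13, also known as GRIM-19, had 65.6, 63.5 and 61.7 CPM in KO libraries, against 67.1, 69.2 and 66.7 CPM in WT libraries (log2 fold -0.089, SE 0.046, adjusted p = 0.70 by the same test). All KO libraries lay below all WT libraries for both genes. Tmco6, on the opposite strand, overlaps 11.5% of the exons of Ndufa2, and Tssk6 overlaps 30.0% of those of Ndufa13. The labels do not say whether reads were counted by strand.

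The other complex I genes whose groups did not overlap were named after their values were seen. Ndufa11, of the membrane arm, had 35.0, 33.0 and 34.8 CPM in KO libraries, against 36.9, 35.0 and 35.2 CPM in WT libraries. Ndufa7 had 56.2, 56.5 and 54.7 CPM in KO libraries, against 56.6, 59.7 and 58.1 CPM in WT libraries. Ndufb7, on the intermembrane face of the membrane arm, had 70.0, 70.3 and 70.2 CPM in KO libraries, against 73.8, 77.4 and 71.6 CPM in WT libraries. The gaps were small next to the spread within WT, and the log2 folds were -0.061 (SE 0.054), -0.059 (SE 0.046) and -0.082 (SE 0.047) for Ndufa11, Ndufa7 and Ndufb7. Ndufb4, of the membrane arm, was the lowest tested gene of complex I per kilobase and had its largest positive fold, with 8.55, 8.02 and 7.60 CPM in KO libraries, against 7.28, 7.64 and 7.42 CPM in WT libraries (log2 fold 0.11, SE 0.090). KO replicate 6 lay below WT replicate 2, and 37.0% of the 50-base words of its transcript also occur in transcripts of other genes. The remaining tested genes of complex I reported here had log2 folds between -0.080 (Ndufc2) and 0.023 (Ndufa9), and their groups overlapped.

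The NDUFA4 pair was unequal in level and similar between groups in its main member. Ndufa4 had 100.3, 91.3 and 90.2 CPM in KO libraries, against 104, 87.1 and 93.0 CPM in WT libraries (log2 fold -0.012, SE 0.077). The groups overlapped widely. Ndufa4l2, a paralog induced by low oxygen in other cells, had 3, 3 and 2 counts in KO libraries, against 4, 6 and 5 counts in WT libraries, and was not tested. The floor of 3 counts is 0.0627 to 0.0722 CPM in these libraries, so these values lie around it, from below in KO replicate 6 to above in WT replicate 2.

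Complex III held the gene with the smallest p of the chain. Uqcrq, a small subunit that lies by cytochrome b (chr11:53427922-53430831, GRCm38, minus strand), had 126, 120.3 and 125 CPM in KO libraries, against 138, 141 and 137 CPM in WT libraries. The groups stood apart, with KO replicate 4, the highest KO library, well below WT replicate 3, the lowest WT library. The mean was 124 ± 2.96 CPM in KO libraries and 139 ± 1.94 CPM in WT libraries (SD, n = 3 each). The fold was 0.890 with a 95% interval of 0.832 to 0.951 (log2 fold -0.17, SE 0.041). It did not pass the threshold, with an adjusted p = 0.60 by edgeR's quasi-likelihood test and an adjusted p = 0.083 by DESeq2. Its log2 fold stayed between -0.18 and -0.15 when each library was left out in turn, including WT replicate 1. With groups that do not overlap, leaving out 1 library could hardly change the sign. No 50-base word of its transcript occurs in transcripts of other genes, and no other gene overlaps its exons.

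The rest of complex III was close between the groups. Uqcrc1, one of the core proteins of the matrix side, had 186, 179 and 169 CPM in KO libraries, against 196, 165 and 182 CPM in WT libraries (log2 fold -0.024, SE 0.071). Uqcrc2, the other core protein, had 177, 175 and 172 CPM in KO libraries, against 182, 171 and 181 CPM in WT libraries (log2 fold -0.030, SE 0.043). Both overlapped, and WT replicate 2 was the lowest library in each. Uqcrfs1, the Rieske iron-sulfur protein that hands electrons to cytochrome c1, had 125, 115 and 122 CPM in KO libraries, against 128, 119 and 122 CPM in WT libraries (log2 fold -0.028, SE 0.053). Uqcrh, the hinge protein next to cytochrome c1, had the largest positive fold of the complex, with 106, 106 and 103 CPM in KO libraries, against 109, 100.1 and 101 CPM in WT libraries (log2 fold 0.020, SE 0.049). Here too the groups overlapped. Uqcr11, a small subunit and the lowest per kilobase, had 39.2, 36.8 and 37.0 CPM in KO libraries, against 43.3, 37.0 and 38.4 CPM in WT libraries (log2 fold -0.071, SE 0.071), with WT replicate 1 the only high library. Uqcrb and Uqcr10 had log2 folds of -0.038 (SE 0.056) and -0.026 (SE 0.083). Cyc1, the catalytic cytochrome c1 of this complex, is outside the name pattern and had 144, 127 and 130.3 CPM in KO libraries, against 149, 128 and 137 CPM in WT libraries.

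**Figure D4:**
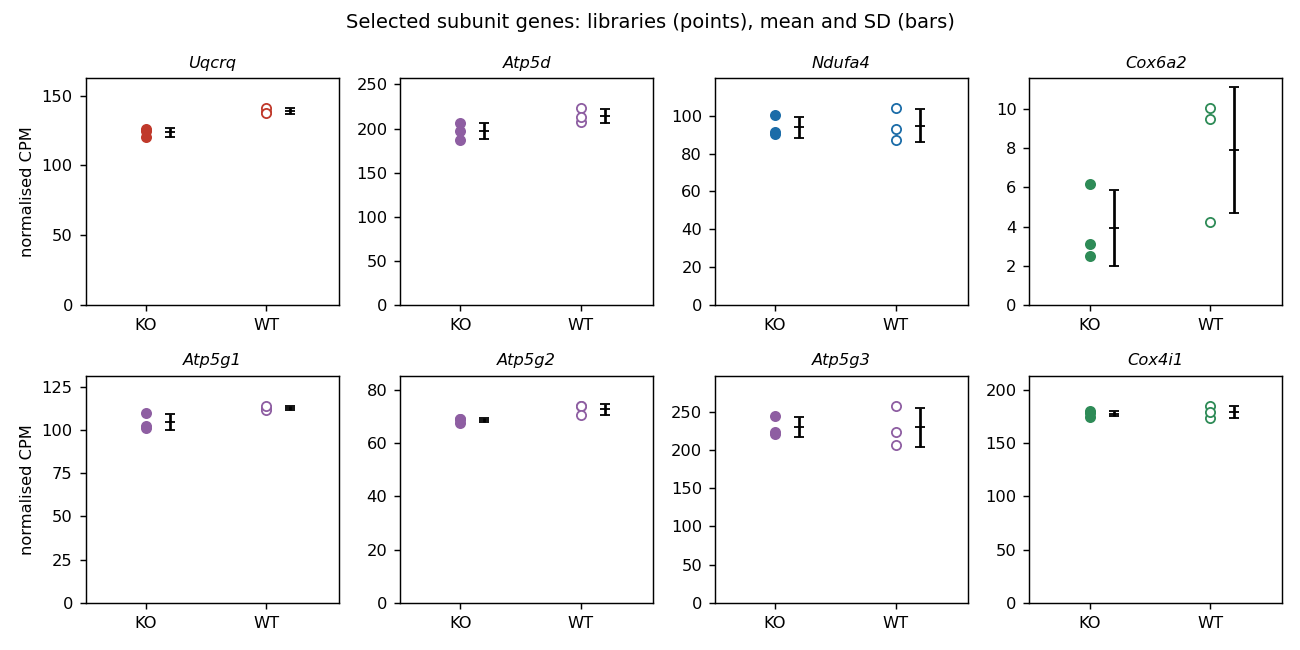
Normalised CPM per library (points) with the mean and SD of each group (bars, n = 3) for 8 subunit genes, KO left of WT, each axis from 0. Uqcrq, Atp5d, Atp5g1 and Atp5g2 have no overlap between groups, while Ndufa4, Atp5g3, Cox4i1 and Cox6a2 overlap.

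For subunits 4, 6a, 6b, 7b and 8 of complex IV, a single isoform gene gave nearly all transcripts in both groups. Several of its subunits have tissue isoforms: in mammals Cox6a2, Cox7a1 and Cox8b are known from heart and skeletal muscle, Cox4i2 from lung, and Cox6b2, Cox7b2 and Cox8c from testis. Cox4i2 had 2, 2 and 2 counts in KO libraries, against 0, 4 and 0 counts in WT libraries. Cox7a1 had 10, 6 and 4 counts in KO libraries, against 6, 11 and 8 counts in WT libraries. Cox7b2, Cox8b and Cox8c had 0 counts in all 6 libraries, which allows up to 0.0722 CPM in the shallowest one. These 5 genes did not pass the filter on low counts. Cox6b2 passed it with 36, 23 and 29 counts in KO libraries, against 46, 29 and 31 counts in WT libraries, and made up 0.844% ± 0.142 of subunit 6b transcripts in KO libraries and 0.964% ± 0.206 in WT libraries (per kilobase, SD, n = 3 each).

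The common isoforms were level between KO and WT. Cox4i1, which regulates the enzyme through adenine nucleotides, had 179.9, 175 and 178 CPM in KO libraries, against 185, 174 and 179 CPM in WT libraries (log2 fold -0.015, SE 0.042). Cox5a had 134, 115 and 124 CPM in KO libraries, against 132, 121 and 128 CPM in WT libraries (log2 fold -0.032, SE 0.066). Cox5b, which binds zinc, had 113, 106 and 106 CPM in KO libraries, against 120.2, 103 and 108 CPM in WT libraries (log2 fold -0.022, SE 0.067). In each of these the KO libraries lay within or across the WT range. Cox6b1, which faces cytochrome c, had 108, 101 and 98.2 CPM in KO libraries, against 112, 100.2 and 103 CPM in WT libraries. Cox8a had 131, 124 and 126 CPM in KO libraries, against 140.0, 127 and 129 CPM in WT libraries, where WT replicate 1 was the high value. Cox6c had the only positive log2 fold of the complex (0.041, SE 0.068), with 77.6, 76.2 and 77.8 CPM in KO libraries, against 82.9, 71.3 and 70.8 CPM in WT libraries. Its KO values lay inside the WT range. Cox7b and Cox7c had log2 folds of -0.045 (SE 0.050) and -0.0042 (SE 0.066).

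The 7a family was split between Cox7a2, the common isoform, and Cox7a2l, which joins complex III to complex IV in supercomplexes. Cox7a2 had 75.8, 70.4 and 70.1 CPM in KO libraries, against 79.1, 69.0 and 71.1 CPM in WT libraries. Cox7a2l had 79.2, 92.0 and 90.9 CPM in KO libraries, against 83.6, 94.7 and 87.8 CPM in WT libraries. Cox7a2l was lowest in KO replicate 4 and WT replicate 1, the libraries in which most other subunit genes were high. Per kilobase, Cox7a2l made up 42.5% ± 3.10 of the family in KO libraries and 42.6% ± 3.17 in WT libraries. The mouse strain C57BL/6 is known to carry a shortened form of this protein, which counts per gene do not show.

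Cox6a2 had the largest difference in size and also the widest spread. It had 3.14, 6.16 and 2.53 CPM in KO libraries, against 4.21, 9.46 and 10.04 CPM in WT libraries. WT replicate 1 lay below KO replicate 5, so the groups overlapped. The mean was 3.94 ± 1.95 CPM in KO libraries and 7.90 ± 3.21 CPM in WT libraries (SD, n = 3 each). The fold was 0.499 with a 95% interval of 0.248 to 1.00 (log2 fold -1.003, SE 0.43), with an adjusted p = 0.69 by edgeR's quasi-likelihood test and 0.34 by DESeq2. Leaving out a library moved the log2 fold between -1.48 and -0.77. Cox6a1, the common isoform, had 112, 104 and 104 CPM in KO libraries, against 119, 109 and 110.1 CPM in WT libraries (log2 fold -0.079, SE 0.056), with overlap at KO replicate 4. Cox6a2 thus made up 3.01% ± 1.502 of subunit 6a transcripts in KO libraries and 5.60% ± 2.36 in WT libraries, per kilobase. Cox6a2 (chr7:128205435-128206387, GRCm38, minus strand) shares 10.3% of its exons with Itgad on the opposite strand, and Itgad had 3, 6 and 8 counts in KO libraries, against 5, 7 and 15 counts in WT libraries. The 5 dendritic cell markers summed to 13.1 to 19.3 CPM in KO libraries and 11.7 to 18.1 CPM in WT libraries, and the 3 CD4 T cell markers to 4.18 to 7.03 CPM in KO libraries and 7.20 to 13.1 CPM in WT libraries. The largest part of that sum in each library was Foxp3, with 1.90, 3.05 and 4.81 CPM in KO libraries, against 4.70, 3.44 and 11.5 CPM in WT libraries. Cd40lg had 1.36, 1.73 and 1.49 CPM in KO libraries, against 2.07, 3.02 and 1.23 CPM in WT libraries. Cd4 itself averaged 0.828 CPM in KO libraries and 0.608 CPM in WT libraries. The part of these markers in the Cox6a2 values was not tested.

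Complex V was close between the groups in its catalytic head. Atp5b, the catalytic beta subunit, had 1236, 1134 and 1119 CPM in KO libraries, against 1245, 1169 and 1232 CPM in WT libraries (log2 fold -0.063, SE 0.061). Atp5a1, the alpha subunit, had 940.2, 898 and 879.6 CPM in KO libraries, against 977, 899 and 938 CPM in WT libraries (log2 fold -0.050, SE 0.057). KO replicate 4 lay within the WT range for both, and Atp5b and Atp5a1 were the highest of the 81 genes. Atp5c1, the gamma subunit of the rotating stalk, had 189, 186 and 187 CPM in KO libraries, against 196, 175 and 184 CPM in WT libraries (log2 fold 0.016, SE 0.050). The KO values of Atp5c1 lay inside the WT range.

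Atp5d, the delta subunit of the same stalk, was the second gene below an unadjusted p of 0.05. It had 206, 197 and 187 CPM in KO libraries, against 223, 208 and 213 CPM in WT libraries. The groups did not overlap, and KO replicate 4 and WT replicate 2 came close to each other. The mean was 197 ± 9.26 CPM in KO libraries and 214 ± 7.98 CPM in WT libraries (log2 fold -0.12, SE 0.052, adjusted p = 0.69 by edgeR's quasi-likelihood test and 0.66 by DESeq2). Atp5e, the epsilon subunit, had a log2 fold of -0.043 (SE 0.052).

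Subunit c, which forms the ring that turns in the membrane, is made in mice from 3 genes that encode the same mature protein with different import sequences. Atp5g1 had 109.6, 101 and 102 CPM in KO libraries, against 113, 111 and 114 CPM in WT libraries (log2 fold -0.11, SE 0.047, adjusted p = 0.69 by edgeR's quasi-likelihood test). Atp5g2 had 69.2, 69.2 and 67.6 CPM in KO libraries, against 73.8, 74.0 and 70.4 CPM in WT libraries (log2 fold -0.083, SE 0.044, adjusted p = 0.71 by the same test). For these 2 genes every KO library lay below every WT library. Atp5g3 had 244, 221 and 224 CPM in KO libraries, against 258, 207 and 224 CPM in WT libraries (log2 fold 0.0027, SE 0.086), so its groups overlapped. Per kilobase, Atp5g3 made up 49.3% ± 0.723 of subunit c transcripts in KO libraries and 47.5% ± 2.70 in WT libraries. Atp5g1 made up 26.8% ± 0.171 in KO libraries and 28.1% ± 1.47 in WT libraries, and Atp5g2 made up 23.9% ± 0.845 in KO libraries and 24.5% ± 1.42 in WT libraries (SD, n = 3 each). The shares differed by less than 1 SD of the WT libraries. All 50-base words of the Atp5g2 transcript and 66.0% of those of Atp5g1 also occur in transcripts of other genes, among them pseudogenes with 19 and 152 counts in all libraries, against 19115 and 29371 counts for Atp5g2 and Atp5g1.

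The peripheral stalk and the small membrane subunits of complex V were close between the groups. Atp5o, the protein that ties the stalk to the head, had 125, 120.3 and 121 CPM in KO libraries, against 138, 125 and 125 CPM in WT libraries (log2 fold -0.079, SE 0.054). Atp5j, also of the stalk, had 112, 107 and 107 CPM in KO libraries, against 111, 103 and 107 CPM in WT libraries (log2 fold 0.025, SE 0.048). WT replicate 1 set the upper end for Atp5o, and the values of Atp5j overlapped. The other stalk and membrane subunits, Atp5f1, Atp5h, Atp5j2, Atp5k and Atp5l, had log2 folds between -0.049 and 0.0023. Atp5sl, named for its likeness to Atp5s and now known as Dmac2, an assembly factor of complex I, had 27.4, 31.6 and 29.8 CPM in KO libraries, against 27.6, 27.4 and 28.0 CPM in WT libraries (log2 fold 0.097, SE 0.067). KO replicate 4, at 27.36 CPM, lay just below WT replicate 2, the lowest WT library, at 27.39 CPM, so the groups overlapped. Atp5s, the lowest of the Atp5 genes per kilobase at 2.24 CPM per kilobase, had 3.05, 3.64 and 3.20 CPM in KO libraries, against 3.03, 3.28 and 3.73 CPM in WT libraries.

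Of the genes that work with the chain, 0 were likewise called by edgeR and by DESeq2 in each list. The 4 subunits of complex II had 3 positive log2 folds and 1 negative, and the smallest p was that of Sdhc (log2 fold -0.052, SE 0.049). Cyc1 and Cycs, which encodes cytochrome c, both had negative log2 folds. Cycs had 103, 86.7 and 92.1 CPM in KO libraries, against 102, 98.8 and 106 CPM in WT libraries, and the groups overlapped. Of 13 genes encoded in the mitochondrion, 11 were tested, with 7 positive and 4 negative log2 folds. They summed to 12113, 11834 and 12334 CPM in KO libraries, against 12749, 11517 and 11438 CPM in WT libraries, so WT replicate 1 was again the highest. Their smallest p was that of mt-Co2, which had only 77, 42 and 41 counts in KO libraries, against 67, 64 and 99 counts in WT libraries. Of the other negative genes, mt-Nd3 and mt-Co3 had 53 and 489 counts in all libraries together, and mt-Co1 had 1228714. Of the positive genes, mt-Atp6 had 241 counts. The other positive genes, mt-Nd1, mt-Nd2, mt-Nd4, mt-Nd5, mt-Nd6 and mt-Cytb, had 49939 counts or more. The part of read counting in the low counts of mt-Co2, mt-Nd3, mt-Co3 and mt-Atp6 was not tested, and these levels are uncertain.

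Assembly factors were tested for each complex. Of 15 for complex I, 5 had positive and 10 negative log2 folds, with the smallest p at Ndufaf8 (log2 fold -0.10, SE 0.072). Of 6 for complex III, 3 were positive and 3 negative. Lyrm7, which guards the Rieske protein before its insertion, had 7.21, 7.91 and 7.70 CPM in KO libraries, against 5.81, 6.90 and 5.89 CPM in WT libraries (log2 fold 0.29, SE 0.11, adjusted p = 0.65 by edgeR's quasi-likelihood test). Its groups did not overlap, and this was the opposite direction to Uqcrq. Uqcc2, also of this list, did not overlap either and was lower in KO. It had 35.8, 32.0 and 36.1 CPM in KO libraries, against 40.8, 37.2 and 37.5 CPM in WT libraries. Of all tested genes, 6.68% were higher in KO and 6.07% lower without overlap. Of 21 for complex IV, 7 were positive and 14 negative, with the smallest p at Cox16 (log2 fold -0.24, SE 0.10, adjusted p = 0.69 by the same test), which had 4.33, 4.23 and 4.28 CPM in KO libraries, against 4.83, 5.10 and 5.22 CPM in WT libraries. The 4 of complex V, including the inhibitor gene Atpif1 (log2 fold -0.029, SE 0.053), were all negative. Lower in KO without overlap were 2 genes of the complex I list, 4 of the complex IV list, Cox16 among them, and 0 of the complex V list. In these lists 0 genes were higher in KO without overlap.

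Coenzyme Q synthesis had 4 positive and 7 negative log2 folds among 11 genes, led by Pdss2 (0.12, SE 0.079), and the 10 genes of supercomplexes and inner membrane shape had 3 positive and 7 negative, led by Higd2a (-0.089, SE 0.055). Of 13 tested regulators of respiratory genes, 4 were positive and 9 negative. Pprc1, a coactivator related to PGC-1, had 306, 278 and 281 CPM in KO libraries, against 318, 322 and 317 CPM in WT libraries. Every KO library lay below every WT library, and the log2 fold was -0.15 (SE 0.051, adjusted p = 0.63 by edgeR's quasi-likelihood test). Ppargc1a, which encodes PGC-1 alpha, had 1 to 4 counts per library and was not tested.

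Read sharing bears on a part of these values. For 31 of the 81 genes, at least 10% of the 50-base words of the transcript also occur in transcripts of other genes, and for 35 genes none does. The highest shares after Atp5g2 were those of Atp5l (84.8%), Atp5g1 (66.0%) and Cox7c (53.0%). The handling of reads with several positions is not stated, so the levels of these genes are uncertain.

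**Figure D5:**
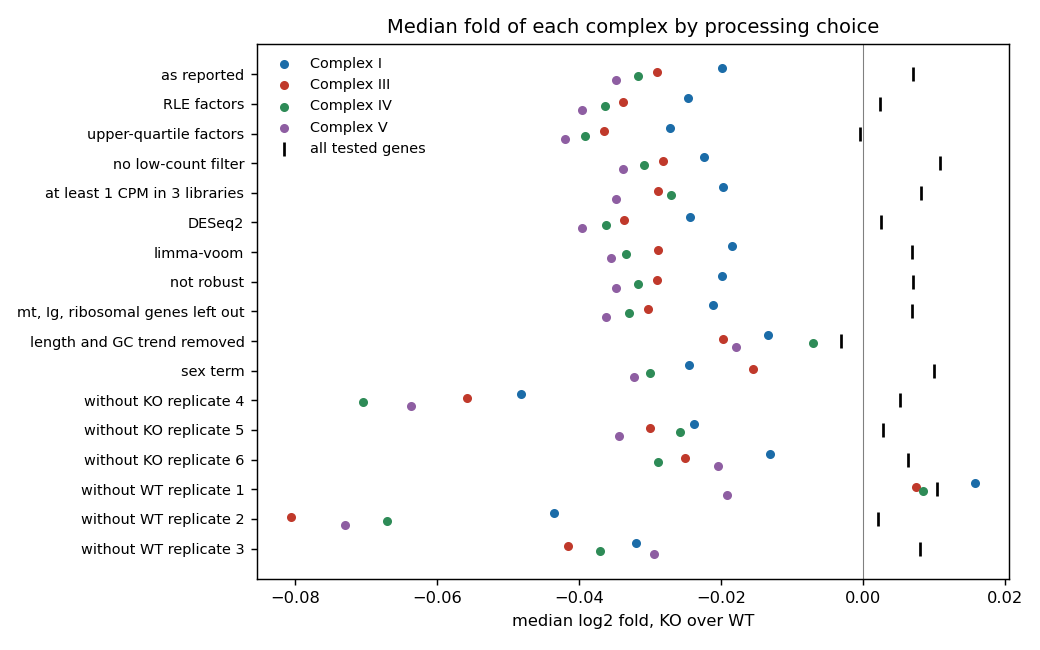
Median log2 fold of KO over WT of the tested genes of each complex (coloured points) and of all tested genes (black bars), as reported and under 16 other processing choices. The medians lie between -0.081 and 0.016, and those of complexes I, III and IV are above 0 without WT replicate 1.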

How the data were processed

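The deposited table gives raw counts of reads per gene for 6 libraries, named by gene symbol. Per the submitters' processing notes, the authors counted reads with HTSeq 0.9.1 on mm10 and used DESeq2. Neither an aligner nor an annotation nor the use of strand in counting is given in the sources used. Library totals were 41311346 to 47851445 counts, and a floor of 3 counts is 0.0627 to 0.0722 CPM (counting error only).

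KO was compared with WT by edgeR 4.0.16 (R 4.3.3): filterByExpr, TMM factors, a robust quasi-likelihood fit and Benjamini-Hochberg adjustment over all 15186 tested genes, with an adjusted p under 0.05 called. Intervals are 95%. DESeq2 1.42.0, limma-voom 3.58.1, other scalings, filters and covariates and the omission of each library were the alternatives. The fits were tested on simulated data. No replicate number occurs in both groups, so nothing is paired.

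Lengths, positions and overlaps came from GENCODE M21 (GRCm38), which matched all 81 genes by symbol or synonym. Length is that of the shortest best-supported principal transcript, and shared words of 50 bases were counted against all other genes' transcripts. Promoter windows came from RefSeq (GRCm38.p6).

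The genes, the related lists and the tests were chosen with earlier results of these data known. Named genes were catalytic core and isoform genes whatever their values, then in each complex the 2 genes with the smallest p in each direction, the highest and lowest per kilobase, and the gene with the smallest p of each related list; other names were added after their values were seen. One of these genes is not reported here.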

Additional observations from a re-analysis of the deposited data

How the results depend on the processing

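No subunit gene was called under the fit as reported or under any of its 16 alternatives. The count over all genes, 1 as reported, was 10 with no filter on low counts, 91 with DESeq2, and 1 to 119 when 1 library was left out, the highest without WT replicate 1 and 2 without WT replicate 2; the cause was not tested. The median log2 fold of each complex moved by less than the SD between replicates under every alternative. That SD, 0.051 to 0.064 by complex, exceeded the reported medians of -0.020 to -0.035 in size, so a median could change sign within it. The medians of complexes I, III and IV were above 0 only without WT replicate 1. No paired analysis was possible because the groups share no replicate number.

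Of 55 named and tested genes, 34 kept the sign of their log2 fold under every alternative, among them Uqcrq, Atp5d, Atp5g1 and Atp5g2. Of the others, Cox6b2, with 23 to 46 counts a library, was reported at -0.24 and the rest between -0.053 and 0.025, and no value of opposite sign was above 0.067 in size; the cause was not tested. Ndufs1 and Atp5g3 were -0.0017 and -0.0019 with DESeq2's factors in edgeR, -0.0043 and -0.0039 with upper-quartile factors, and -0.0016 and -0.0019 with DESeq2. With the trends of length and GC removed, the values were -0.017 for Ndufs1, 0.0021 for Ndufs8, -0.026 for Ndufv2, 0.031 for Cox4i1, 0.013 for Cox7a2, 0.0010 for Cox8a and 0.0081 for Atpif1. With a term for sex, Ndufab1 was 0.0092 and Ndufa4 was 0.0046.

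Some of these 55 genes crossed 0 when 1 library was left out in turn. Their lowest and highest log2 folds were -0.026 to 0.030 for Ndufs1, -0.021 to 0.048 for Ndufv1, -0.053 to 0.063 for Ndufv2, -0.043 to 0.030 for Ndufab1, -0.069 to 0.061 for Ndufa4, -0.087 to 0.037 for Uqcrc1, -0.055 to 0.0077 for Uqcrfs1 and -0.0025 to 0.061 for Uqcrh. In complex IV they were -0.037 to 0.0085 for Cox4i1, -0.089 to 0.021 for Cox5a, -0.071 to 0.046 for Cox5b, -0.075 to 0.014 for Cox6b1, -0.36 to 0.014 for Cox6b2, -0.057 to 0.044 for Cox7a2 and -0.063 to 0.043 for Cox7a2l. In complex V they were -0.067 to 0.095 for Atp5g3, -0.0011 to 0.052 for Atp5j and -0.10 to 0.062 for Atp5s. Genes outside the 55 crossed 0 as well, among them Ndufa9 (-0.013 to 0.067), Uqcrb (-0.074 to 0.012) and Uqcr10 (-0.087 to 0.065). So did Cyc1 (-0.10 to 0.014), Cox7c (-0.066 to 0.045) and Atp5c1 (-0.021 to 0.059).

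Depth limits Ndufa4l2, Cox4i2 and Cox7a1, whose counts are near the floor, and Cox6b2. The size of difference that 3 libraries a group can detect was not measured for these genes.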
